A study of Mus musculus with 28 samples.

Results

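Of the Ctcf binding sites called in neural stem cells that lack Smchd1, 147 lay beside DNA called methylated in null or wild-type cells. These sites are described here as MBD-flanked Ctcf sites. They were chosen by measured positions: each is a peak summit of the Ctcf list of null cells that has a Ctcf summit of wild-type cells no more than 1 kb away, and a summit of captured methylated DNA (MBD) within 250 bp. The wild-type summit could come from untransduced cells or from cells that carried a non-silencing hairpin (shRNA). The MBD summit could come from the list of either genotype, so it need not have been called in null cells. They were 147 of 11920 null Ctcf summits on assembled chromosomes and 147 of 9390 that were shared with wild type (1.57%, exact 95% binomial interval 1.32 to 1.84%). The remaining 9243 shared summits had no MBD summit within 250 bp and are called MBD-free Ctcf sites.

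Ctcf is a zinc finger protein that binds a long, GC-rich DNA motif, blocks the passage of cohesin and so anchors chromatin loops and insulators. Methylation of CpG dinucleotides within its motif is known to weaken its binding at many sites. The best known case is the region upstream of H19, where Ctcf binds the unmethylated maternal copy and leaves the methylated paternal copy free. Trimethylation of histone H3 at lysine 4 (H3K4me3) marks active and CpG-rich promoters, whose DNA is usually unmethylated.

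All cells were neural stem cells from the brain of male C57BL/6 x FVB/N embryos at E14.5, either MommeD1/MommeD1, which is null for Smchd1, a chromatin protein that keeps genes silenced, or wild type for that gene. Ctcf was immunoprecipitated from 2 libraries each of null cells, of untransduced wild-type cells, of wild-type cells with the non-silencing shRNA and of wild-type cells with Ctcf shRNAs. The last group, with 1 library for each of 2 hairpins, was the control for all 3 Ctcf lists. H3K4me3, H3K27me3 and Smchd1 had 2 libraries per genotype, MBD capture had 3, and whole cell extract had 1. Each list was called on the pooled libraries of its group, so no value has replicate error and no test across samples was possible. Intervals cover counting error only, and sites that lie close together are not independent. The MBD samples titled null cite the list named WT and the reverse, so these lists are called D1-named and WT-named and no genotype direction is drawn from them.

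The null Ctcf list, the wild-type Ctcf lists with 8292 untransduced and 20483 non-silencing summits, and the MBD lists with 126631 D1-named and 156188 WT-named summits give scores that rank summits within a list, and the reads behind them are unknown. The cells were checked by H3K4me3 within 2 kb of marker gene ends. Of 19 neural stem cell markers, 17 carried it in null and 18 in wild-type cells, against 4 of 11 markers of blood, endothelium and mesenchyme in both. Of 9 neuron markers, 6 carried it in null and in wild-type cells, so the mark alone does not set neural stem cells apart from neurons. At the Smchd1 gene itself none of the 3 Ctcf lists held a summit, so no MBD-flanked site lay there, while the D1-named and WT-named MBD lists held 9 and 10 summits.

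Reference sequence was at hand for 4 of these sites, those inside the 300 bp RefSeq promoter windows of GRCm38 (the same assembly as mm10). They are shown to set the Ctcf summit beside the CpGs and the letters of the Ctcf core. Capitals mark CCNNNAGNNGGC, a 12-letter core, and AGNNGGCG, an 8-letter core chosen after these sequences were seen, searched on both strands.
Usp29, chr7:6730333-6730632, plus strand: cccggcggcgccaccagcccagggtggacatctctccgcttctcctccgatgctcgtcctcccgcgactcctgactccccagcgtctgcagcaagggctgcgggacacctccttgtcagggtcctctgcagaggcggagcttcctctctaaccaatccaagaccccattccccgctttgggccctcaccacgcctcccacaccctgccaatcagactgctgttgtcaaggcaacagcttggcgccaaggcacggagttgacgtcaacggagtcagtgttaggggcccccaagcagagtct
Gm40904, chr13:12925512-12925811, plus strand: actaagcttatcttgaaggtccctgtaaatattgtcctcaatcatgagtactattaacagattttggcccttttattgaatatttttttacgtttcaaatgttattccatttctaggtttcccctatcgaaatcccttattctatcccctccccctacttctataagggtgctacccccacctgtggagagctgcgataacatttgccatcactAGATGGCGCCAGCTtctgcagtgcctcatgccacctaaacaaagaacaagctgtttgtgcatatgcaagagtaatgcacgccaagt
Cnih1, chr14:46788308-46788607, minus strand: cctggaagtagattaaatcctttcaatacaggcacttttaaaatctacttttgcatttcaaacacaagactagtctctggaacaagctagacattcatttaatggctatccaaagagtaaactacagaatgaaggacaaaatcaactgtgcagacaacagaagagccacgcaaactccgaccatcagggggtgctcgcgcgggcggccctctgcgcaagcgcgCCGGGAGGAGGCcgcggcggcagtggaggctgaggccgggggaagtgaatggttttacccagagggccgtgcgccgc
Gm41484, chr16:87246644-87246943, minus strand: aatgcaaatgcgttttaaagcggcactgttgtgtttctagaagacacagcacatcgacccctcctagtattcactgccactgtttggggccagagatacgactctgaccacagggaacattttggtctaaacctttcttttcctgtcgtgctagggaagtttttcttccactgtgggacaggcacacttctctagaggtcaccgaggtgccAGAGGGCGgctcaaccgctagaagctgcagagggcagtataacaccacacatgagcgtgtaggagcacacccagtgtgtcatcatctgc

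The Ctcf summit fell at base 25 of the Usp29 window, base 226 of the Gm40904 window, base 195 of the Cnih1 window and base 238 of the Gm41484 window. In the Gm40904 window the capitals are overlapping matches of the 8-letter core on both strands, at bases 215 to 222 and 221 to 228, so the summit lay inside them. The match in the Gm41484 window ended at base 219, before the summit, and that in the Cnih1 window, of the 12-letter core, began at base 224, after it. Usp29 held neither core in this window. Only exact matches are in capitals, so a stretch near a summit that differs from a core by a letter is not marked. The windows held 17 CpGs at Usp29, 5 at Gm40904, 17 at Cnih1 and 9 at Gm41484, against a median of 22 in the 594 windows with an MBD-free Ctcf summit and 7 over all 32851 windows of the table used. No window on chromosome 18, where 2 of the 147 sites lie, was used here. The 12-letter core occurred in 1 of these 4 windows, in 280 of the 594 (47.1%) and in 8.61% of all. The 8-letter core occurred in 2 of the 4, in 389 of the 594 (65.5%) and in 24.0% of all. With 4 windows, neither share of the MBD-flanked sites can be told from either background.

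Methylated DNA was rarely called at the centre of a Ctcf site that null and wild-type cells shared. Within 100 bp of these summits the density of MBD summits was 6.18% of that at 1 to 2 kb in the D1-named list and 7.20% in the WT-named list. Within 250 bp it was 18.5% and 20.3%, and beyond 500 bp it had reached 101% and 102% of the level at 1 to 2 kb. The wild-type lists were taken whole, with summits shared with null cells or not. Around them the density within 250 bp was 20.8% and 20.5% for untransduced summits and 19.7% and 21.3% for non-silencing summits. Within 100 bp it was 11.7% and 11.4% around untransduced summits and 8.06% and 8.89% around non-silencing summits. The untransduced values rest on 21 and 25 MBD summits, and those around shared null summits on 13 and 18. Whole lists are not a like comparison for the shared null summits alone. Within 100 bp of null summits without a wild-type neighbour the density was 48.3% and 50.7%, so no difference between null and wild-type cells is read from these values. Around null Ctcf summits that had no wild-type summit within 1 kb, the density within 250 bp was 62.3% in the D1-named and 62.4% in the WT-named list. Around null H3K4me3 summits it was 14.0% and 17.3%, and there it stayed low for longer, at 56.0% and 59.6% from 500 to 999 bp.

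**Figure D1:**
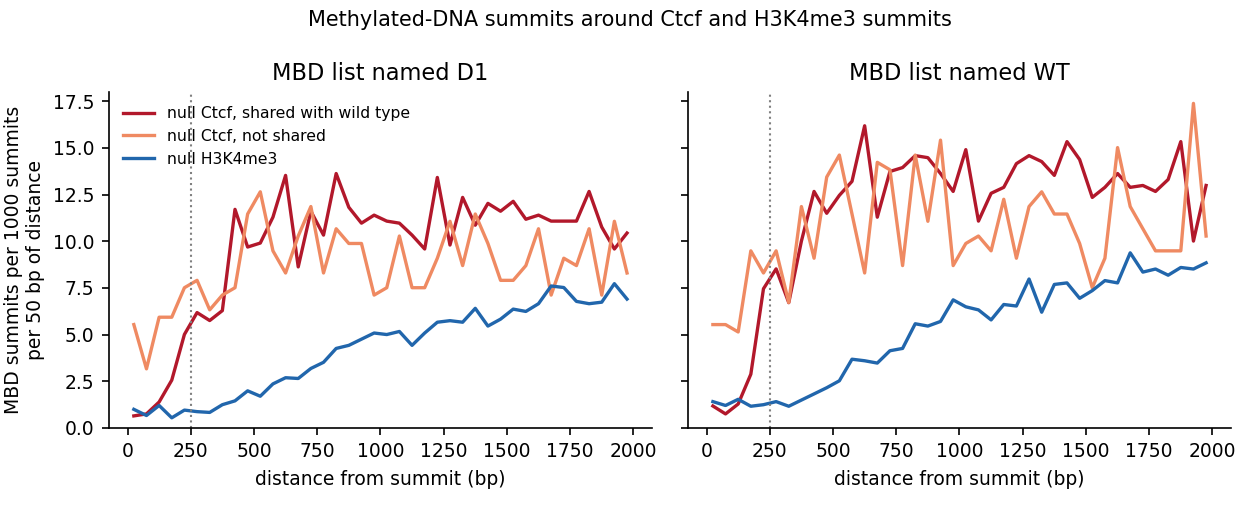
MBD summits per 1000 summits in each 50 bp of distance (vertical axis) against the distance from null Ctcf summits shared with wild type, null Ctcf summits not shared and null H3K4me3 summits (horizontal axis, bp), for the D1-named (left) and WT-named (right) MBD lists. The dotted line is the 250 bp limit, and the line of shared Ctcf summits lies on its steep part, reaching its plateau near 500 bp.

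The MBD-flanked sites are therefore the inner edge of this profile. Their nearest MBD summit lay 8 to 250 bp away, with a median of 203 bp, and their number grew outward: 14 sites at 0 to 50 bp, 8 at 51 to 100 bp, 18 at 101 to 150 bp, 32 at 151 to 200 bp and 75 at 201 to 250 bp. The limit cut through a rising slope, with 19 sites at 241 to 250 bp just inside it and 14 shared summits at 251 to 260 bp just outside it. The limit on the wild-type Ctcf summit cut through few sites: 4 had theirs at 501 to 1000 bp, and 2 more null summits beside MBD had theirs at 1001 to 1500 bp. The wild-type Ctcf summit lay within 50 bp of 124 MBD-flanked sites (84.4%, 77.5 to 89.8%) and of 8461 MBD-free sites (91.5%, 91.0 to 92.1%).

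Over all null Ctcf summits, shared or not, 2.00% had an MBD summit within 250 bp. The share was 3.60% (91 of 2530, 2.91 to 4.40%) of summits not shared with wild type, against 1.57% of the shared ones. In the untransduced wild-type list 132 of 8292 summits (1.59%, 1.33 to 1.88%) had such a neighbour, and in the non-silencing list 315 of 20483 (1.54%, 1.37 to 1.72%). These lists share their control libraries, and the shares are set side by side without a test.

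At the median, MBD-flanked sites scored lower than MBD-free sites, but their ranks were spread widely. Their null score ran from 3.39 to 53.8 with a median of 7.68, against a median of 9.03 for MBD-free sites. The median rank in the null list was at percentile 41.2 for MBD-flanked and 57.4 for MBD-free sites. Over all null summits, which include those not shared, the median score was 8.28 and the median percentile 49.5. The middle 50% of MBD-flanked sites ran from percentile 20.8 to 70.8. Among the 38 with a score of at least 10 the median was 13.5, against 12.9 for MBD-free sites of such scores. The null list was split by score into 4 equal bins of 2980 summits. MBD lay within 250 bp of 3.32% (2.71 to 4.03%) of summits in the lowest bin, 2.05% in the next, 1.24% in the third and 1.38% (0.989 to 1.86%) in the highest. Among shared summits alone these shares were 2.42%, 1.97%, 1.00% and 1.24%. Within the lowest bin, summits not shared with wild type had MBD at 57 of 1247 (4.57%, 3.48 to 5.88%) and shared ones at 42 of 1733 (2.42%, 1.75 to 3.26%). In the lowest bin of the wild-type lists, summits shared with null had MBD at 2.14% (1.33 to 3.25%) in untransduced and 2.68% (1.90 to 3.66%) in non-silencing cells, so among shared summits the intervals overlap. In the wild-type lists MBD-flanked sites ranked lower too, at a median percentile of 50.4 of untransduced summits against 56.9 for MBD-free sites, and 49.0 of non-silencing summits against 65.4.

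**Figure D2:**
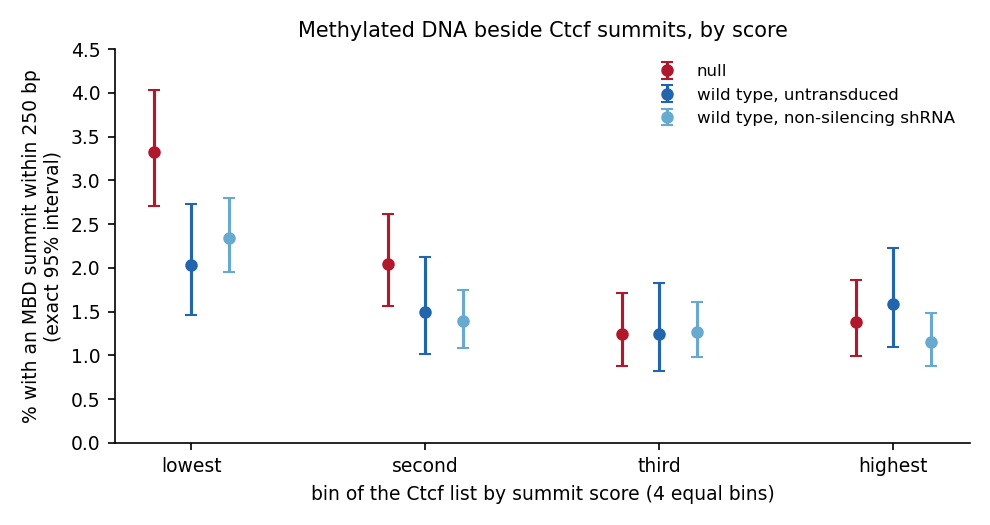
Percent of summits with an MBD summit of either list within 250 bp (vertical axis, bars are exact 95% intervals) by score bin (horizontal axis, 4 equal bins per list), in the null, untransduced and non-silencing Ctcf lists. The null list runs from 3.32% in its lowest bin to 1.38% in its highest, and in the lowest bin the null point, which includes summits not shared with wild type, lies above both wild-type points.

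Both wild-type Ctcf lists held a summit within 1 kb of 60 MBD-flanked sites (40.8%, 32.8 to 49.2%), against 4741 MBD-free sites (51.3%, 50.3 to 52.3%) and 40.3% of all null summits. The choice of sites used this measure, and the last share counts 2530 null summits that by definition have no wild-type summit, so nothing is read from it. The non-silencing list alone gave the wild-type summit at 77 MBD-flanked sites (52.4%) and 4147 MBD-free sites (44.9%), and the untransduced list alone at 10 (6.80%) and 355 (3.84%). Both MBD lists had a summit within 250 bp at 74 sites (50.3%), the D1-named list alone at 21 and the WT-named list alone at 52. The WT-named list is the longer, so this split does not compare genotypes. Methylated DNA beside these sites was of middling rank: the nearest MBD summit stood at a median percentile of 40.3 of the D1-named list at 95 sites and of 40.6 of the WT-named list at 126 sites.

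MBD-flanked Ctcf sites lay more often inside genes and less often at gene ends or H3K4me3 than MBD-free ones. Inside a protein-coding gene lay 92 (62.6%, 54.2 to 70.4%), against 4427 MBD-free sites (47.9%, 46.9 to 48.9%) and 49.0% of all null summits. Within 2 kb of an end of a coding gene lay 17 (11.6%, 6.88 to 17.9%), against 2096 (22.7%, 21.8 to 23.5%) and 21.4% of all. A null H3K4me3 summit within 1 kb marked 11 MBD-flanked sites (7.48%, 3.79 to 13%), against 1729 MBD-free sites (18.7%, 17.9 to 19.5%) and 16.9% of all. With the wild-type H3K4me3 list the count was 10 (6.80%, 3.31 to 12.2%), against 1756 (19%, 18.2 to 19.8%) and 16.9% of all, and 9 sites were marked in both. In each of these 4 comparisons the intervals of MBD-flanked and MBD-free sites did not overlap. Nothing here is shown to be particular to sites shared with wild type: of the 91 null summits beside MBD without a wild-type summit, 60.4% (49.6 to 70.5%) lay inside a coding gene, 14.3% (7.83 to 23.2%) near a coding gene end and 5.49% (1.81 to 12.4%) by null H3K4me3. The annotation used gives gene ends but no exons or untranslated regions, so the place within a gene is not stated.

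**Figure D3:**
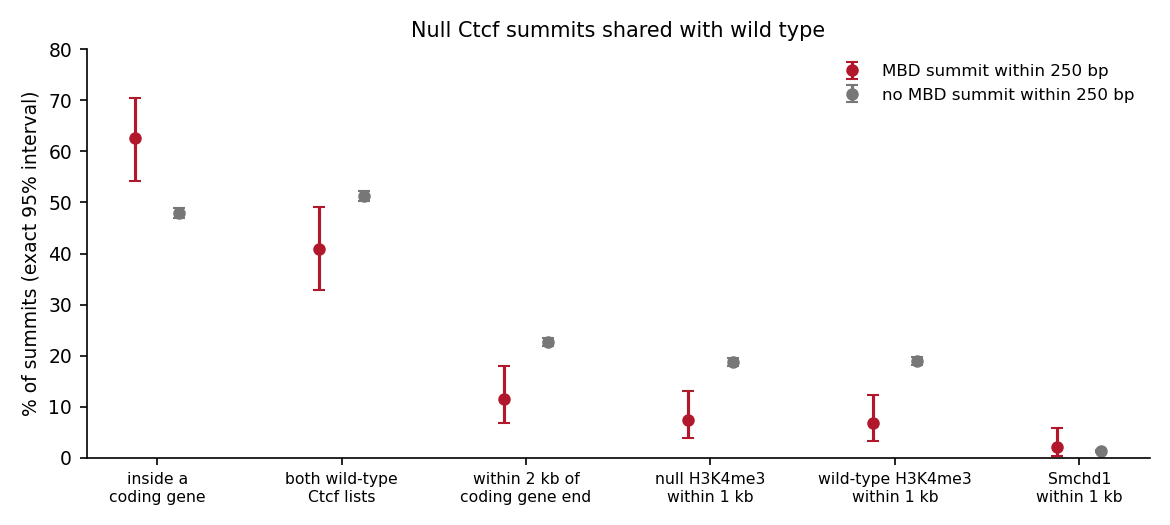
Percent of null Ctcf summits shared with wild type (vertical axis, bars are exact 95% intervals) that have each feature (horizontal axis), for 147 sites with and 9243 sites without an MBD summit within 250 bp. MBD-flanked sites lie above MBD-free sites for position inside a coding gene and below them for coding gene ends and H3K4me3, and the intervals overlap for Smchd1.

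Some of the sites lay in regions known for repeated sequence. These 4 regions were windows of 10000 to 500000 bp on each side of a gene, chosen after their values were seen. No repeat annotation was used, so a site inside them need not lie in a repeat, and sites outside may. The regions held 12 of the 147 sites. Of these, 6 lay around Rn18s-rs5, an annotated ribosomal RNA pseudogene on chromosome 17. Another 4 lay on chromosome 8 around Gm21811, and 1 each near Mir101c and Pisd-ps1. The 6 at Rn18s-rs5 lay within 39843254 to 39848575, scored 5.07 to 9.42 and had no H3K4me3 of either list within 1 kb, and the region held 9 shared summits in all. The 4 on chromosome 8 all had H3K4me3 in null and in wild-type cells, of 12 shared summits there, and so did the site near Pisd-ps1 in null cells, while that near Mir101c had none. The chromosome 8 sites included the strongest of all MBD-flanked sites, at 20424859 beside 2610005L07Rik, with a null score of 53.8. Its scores were 32.8 in the untransduced and 75.6 in the non-silencing list, where it was the highest summit of all. Next to it in rank came 19784581 beside Gm10060, with a null score of 39.8, and its H3K4me3 summit had the highest score of the null list, 161. How reads from repeated copies were placed, which the labels do not state, was not tested. Outside the 4 regions, 6 of 135 MBD-flanked sites had a null H3K4me3 summit within 1 kb (4.44%, 1.65 to 9.42%).

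The sites nearest to methylated DNA had H3K4me3 at a higher share than the others, with intervals that overlap. Of the 22 with an MBD summit within 100 bp, 5 had null H3K4me3 within 1 kb (22.7%, 7.82 to 45.4%), against 6 of the 125 with MBD at 101 to 250 bp (4.80%, 1.78 to 10.2%). Outside the repeat regions the counts were 3 of 16 (18.8%, 4.05 to 45.6%) and 3 of 119 (2.52%, 0.523 to 7.19%). Inside coding genes lay 9 of the 22 (40.9%, 20.7 to 63.6%) and 83 of the 125 (66.4%, 57.4 to 74.6%). The median null score was 7.75 and 7.68. With the limit for MBD set at 100 bp, the direction against MBD-free sites turned for null H3K4me3 (22.7% against 18.5%), for position inside a coding gene (40.9% against 48.1%) and for both wild-type Ctcf lists (59.1% against 51.1%).

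**Figure D4:**
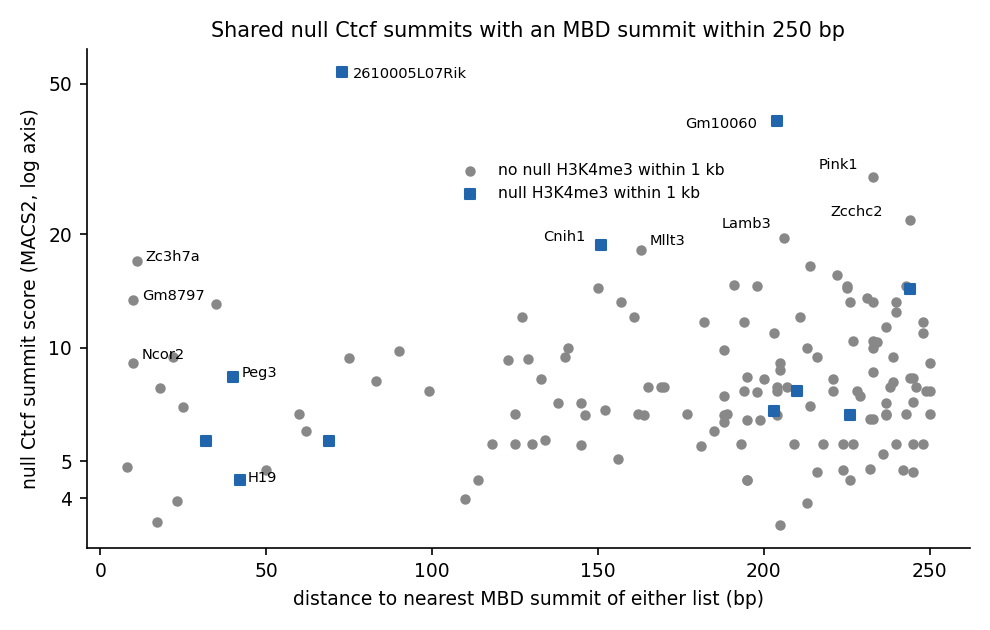
Null Ctcf score (vertical log axis) against the distance to the nearest MBD summit of either list (horizontal axis, bp) for the 147 MBD-flanked Ctcf sites, with squares for sites that have a null H3K4me3 summit within 1 kb. Most sites crowd at 150 to 250 bp with scores of 4 to 15, and the sites of Peg3 and H19 lie among the 14 within 50 bp of MBD.

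A pair of imprinting control regions stood among the 14 sites within 50 bp. Imprinted genes are expressed from the copy of a given parent, and their control regions carry DNA methylation on the copy of either the mother or the father. At Peg3 and Usp29, neighbouring genes that are expressed from the paternal copy, the null Ctcf summit lay at 6730357 on chromosome 7. It scored 8.38 and lay inside Peg3, 105 bp from an end of the gene and 62 bp from a Peg3 transcription start. The MBD summits lay 41 bp away with a score of 39.6 in the D1-named list and 40 bp away with 46.1 in the WT-named list. H3K4me3 lay 138 bp away with a score of 10.3 in null and 135 bp away with 27 in wild-type cells, and the non-silencing Ctcf summit, with a score of 9.76, lay 61 bp away. The untransduced list had no summit within 1 kb, its nearest being 2861 bp away. The Usp29 promoter window that holds the site is the first of the sequences shown.

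Upstream of H19, a maternally expressed non-coding RNA, the null Ctcf summit at 142580279 on chromosome 7 had a low score, 4.47. It lay 2133 bp from the gene, and so outside the 2 kb rule for listed genes, and it is given here after its values were seen. Its MBD summits lay 42 bp away with a score of 26.4 in the D1-named list and 45 bp away with 20.9 in the WT-named list. H3K4me3 was called 194 bp away with a score of 5.95 in null and 234 bp away with 14.3 in wild-type cells. The Ctcf summit of the non-silencing list lay 23 bp away with a score of 14.7, and the untransduced list had none within 1 kb. Both regions thus had MBD and H3K4me3 within 250 bp of the Ctcf summit. With the null H3K4me3 list 8 of the 147 sites had this combination (5.44%, 2.38 to 10.4%). Of MBD-free sites, 10.5% had null H3K4me3 within 250 bp, so H3K4me3 this near was not more frequent at MBD-flanked sites. The combination itself cannot be compared, because MBD-free sites by definition have no MBD summit within 250 bp.

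Of 14 gene lists, 2 held a gene with an MBD-flanked Ctcf site inside it or within 2 kb of an end. Over all coding genes 100 of 21887 did (0.457%). Among imprinted genes these were Peg3 and Usp29, which share their site, of 51 annotated and 16 with any shared null Ctcf summit. Among neuron genes it was Rbfox3, which encodes the neuronal splicing factor NeuN, of 20. The Rbfox3 site had a null score of 11.7 and an MBD summit 194 bp away, and lay 1313 bp inside an end of the gene. The other 12 lists held none, among them the clustered protocadherins, where Ctcf chooses promoters, at 0 of 58. Of these, 32 had a shared null Ctcf summit, but neighbouring genes counted the same few summits, and those of Pcdha1 had their nearest MBD summit at 261 bp, just past the limit. Those of Hox genes (0 of 41), germ line and pluripotency (0 of 35), DNA methylation (0 of 20), X inactivation (0 of 11), Ctcf, cohesin and condensin (0 of 32), neural stem cell (0 of 22), astrocyte and oligodendrocyte (0 of 13) and blood, endothelium and mesenchyme genes (0 of 21) were likewise empty. So were developmental transcription factors (0 of 64), signalling of neural development (0 of 43) and housekeeping genes (0 of 16). Against 0.457% of all coding genes, an empty list of at most 64 genes is no result about its members.

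Of the 20 sites of highest null score, 10 lay inside a coding gene. Beside the 62.6% of all MBD-flanked sites and 49.0% of all null Ctcf summits, nothing is read from this count. Sites of the chromosome 8 repeat region made up 3 of the 20, the third being that at 20122274 near Gm21811 with 14.4. After the leading sites of that region came Pink1, a kinase of mitochondrial quality control, with a null score of 28.3 at 138319719 on chromosome 4. Its scores were 23.8 in the untransduced and 43.2 in the non-silencing list, the MBD summit lay 233 bp away in the WT-named list, and the site lay inside the gene. Zcchc2, 3123 bp from its site on chromosome 1, followed with 21.8, and Lamb3, which encodes a laminin chain, with 19.5. All 3 were listed in both kinds of wild-type cells within 36 bp, and their null H3K4me3 summits were over 6 kb away.

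At Cnih1, which encodes a cargo receptor for export from the endoplasmic reticulum, the null Ctcf score was 18.7 at 46788413 on chromosome 14, 56 bp outside the gene. The untransduced score was 9.54 and the non-silencing score 15.4. It was the only one of the 20 within 1 kb of H3K4me3 apart from the 3 on chromosome 8, with H3K4me3 226 bp away at scores of 42.0 in null and 41.1 in wild-type cells. Its MBD summit, 151 bp away with a score of 9.08, was in the D1-named list alone, and the nearest WT-named summit lay 4119 bp away.

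Mllt3, a reader of acylated histones that recruits elongation factors, held a site with a null score of 18.2 at 87788887 on chromosome 4. The non-silencing list had a score of 6.92 there, and the untransduced list had no summit within 200 kb. Zc3h7a, a zinc finger gene, held the site of highest score among the 14 with MBD within 50 bp, with 17.0 at 11144111 on chromosome 16. Ctcf scores there were 20.6 in the untransduced and 20.0 in the non-silencing list, and MBD summits lay 11 bp away in both MBD lists with scores of 8.04 in the D1-named and 13.7 in the WT-named list. No H3K4me3 summit lay within 9 kb of it.

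Lower in the 20 came Rin3, an exchange factor for Rab5 (null score 16.5), Tbc1d9b, a protein with a Rab GTPase-activating domain (15.5), and Rara, the retinoic acid receptor alpha (14.6). Others were Clip2, a linker of microtubules (14.6), Coq2, an enzyme of coenzyme Q synthesis (14.4), and Fam169a (14.4). These 6 sites all lay inside the gene, were listed in both kinds of wild-type cells and had MBD at 150 to 243 bp. Further sites had their nearest coding gene farther off: Ddhd1, a phospholipase, at 26447 bp, Glis3, a zinc finger factor, at 92653 bp, Emp1, a membrane protein, at 34471 bp, and Pex2, of peroxisome assembly, at 282135 bp. The Ddhd1 and Glis3 sites lacked an untransduced summit within 1 kb, and the Pex2 site lacked a non-silencing one.

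Gm41484, a non-coding gene on chromosome 16, is the last of the windows shown. The null Ctcf score there was 8.64 and the non-silencing score 6.82, the MBD summits lay 233 bp away with a score of 26.6 in the D1-named list and 245 bp away with 38.0 in the WT-named list, and no H3K4me3 lay within 100 kb.

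By MBD score the leading site was at Gm40904, a non-coding gene on chromosome 13 whose promoter window is shown. The MBD summit 129 bp away scored 81.4 in the D1-named list and that 167 bp away scored 119 in the WT-named list, which is the highest score of that list. The null Ctcf score there was 9.34, the non-silencing score 7.46, and a neighbouring MBD-flanked site of the same gene, at 12932009, scored 9.98. Dnah17, an axonemal dynein (nearest MBD scores of 64.1 and 80.2 in the D1-named and WT-named lists), Acvr2b, an activin receptor (57.2 and 75.3), and Hs1bp3 (60.7 and 55.9) also held sites among the 10 of highest MBD score. So did Dnajc11, of mitochondrial membrane organisation, Akap7, an anchor of protein kinase A, St6galnac3, a sialyltransferase, and Ubr4, a ubiquitin ligase. The sites nearest to Zfp236 and 1600014C23Rik lay outside these genes. Null Ctcf scores of these 10 sites ran from 4.47 at Akap7 to 12.5 at Hs1bp3. No untransduced Ctcf summit lay within 1 kb of 8 of the 10. The same held for 77 of all 147 MBD-flanked sites (52.4%) and 4147 of 9243 MBD-free sites (44.9%). It also held for 6754 of 11920 null summits. The choice of sites used the untransduced list, and with 10 sites nothing is read from this count.

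The wild-type Smchd1 lists were short, with 407 summits at the 5e-4 and 1105 at the 5e-3 threshold. A site without one thus cannot be read as lacking Smchd1, and few Ctcf sites of any kind had one. A wild-type Smchd1 summit at the 5e-4 threshold lay within 1 kb of 3 (2.04%, 0.423 to 5.85%), against 116 MBD-free sites (1.26%, 1.04 to 1.50%) and 1.16% of all null Ctcf summits, and the intervals overlap. One was at Gm51701, nearest to the chemokine receptor gene Ccr1 at 36602 bp, where Smchd1 lay 2 bp away with a score of 7.74. Ctcf there scored 5.68 in null, 4.08 in untransduced and 12.6 in non-silencing cells, MBD lay 32 bp away in the WT-named list, and H3K4me3 lay 249 bp away in null and 211 bp away in wild-type cells. Another was inside Vat1l, with Smchd1 12 bp away at a score of 4.82 and a null Ctcf score of 12.1. The third was at Gm52033 on chromosome 13, nearest to Zfp640, with Smchd1 94 bp away at 8.72 and a null Ctcf score of 7.67. At the 5e-3 threshold 4 MBD-flanked sites (2.72%, 0.746 to 6.82%) and 252 MBD-free sites (2.73%, 2.40 to 3.08%) had Smchd1.

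The H3K27me3 lists, of the mark of Polycomb repression, were short, with 77 null and 732 wild-type summits in all, so a site without one cannot be read as lacking the mark. H3K27me3 lay within 1 kb of 0 of the 147 sites in null and in wild-type cells, which allows a share of up to 2.04%. Of the 9243 MBD-free sites 0 had it in null and 11 in wild-type cells (0.119%). The X chromosome held 0 MBD-flanked and 75 MBD-free sites (0.811%), and Y held 0 and 16, so an absence from either was not detectable at this number of sites. On the autosomes their share of shared null Ctcf summits ran from 0.685% on chromosome 19 (2 of 292) to 2.51% on chromosome 14 (9 of 358).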

How the data were processed

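Only the deposited peak summits were used. The submitters' processing notes name CASAVA 1.4, MACS2 (version 2) and mm10, with the aligner not given in the sources used here. Each of the 11 lists holds 1 bp summits and the authors' score, a −log10 p-value or q-value (which of them, the headers do not say), above thresholds of 5e-4 or 5e-3. Per the labels, Ctcf lists were called against Ctcf ChIP from cells with Ctcf shRNAs, Smchd1 against Smchd1 ChIP from null cells, and the other marks and MBD against whole cell extract, so a summit also depends on its control. Coverage and reads were not used here, and depth is unknown. Columns of per-sample values left unused numbered 0, so no count is given.

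Nearest distances, shares and exact (Clopper-Pearson) 95% intervals were computed with scipy 1.17.1, pandas 2.3.3 and numpy 2.4.6 (Python 3.11.15) and drawn with matplotlib 3.10.9. Of 13 null Ctcf summits on unplaced contigs, which were left out, 2 met the rule. Genes, 49943 of them and 21887 coding, came from RefSeq on GRCm38, which gives no exons here. A share of 0 is given with the limit that 3 counts allow. Distances were tested on simulated data and matched a brute-force search in 200 of 200 cases. The sites, gene lists and comparisons were chosen with earlier results of these data known. Genes were named by rule: nearest to the 20 sites of highest null score and the 10 of highest MBD score, list genes with a site, and sites with Smchd1. Not every gene so chosen is reported here. Repeat regions and the other sites described were chosen after their values were seen. Where the methylation limits, wild-type list or score minimum were varied, the effect is given at the end.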

Additional observations from a re-analysis of the deposited data

How the results depend on the processing

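No paired analysis was possible because each list pools the libraries of its group, so leaving out a replicate was not possible either. Of 115 recomputed values, 87 stayed within 1.5 times the count, or within the counting interval, of the value reported, and 28 moved.
Requiring MBD within 100 bp left 22 sites, 0.234% of shared summits. Of them 40.9% lay inside coding genes, 18.2% near a coding gene end, 59.1% in both wild-type lists, 40.9% beside both MBD lists and 22.7% by null H3K4me3. At 500 bp there were 597 sites (6.36%), with a median score of 8.32, 49.4% in both wild-type lists and 68.7% beside both MBD lists. A null score of at least 10 left 38 sites (1.10%) with a median score of 13.5, 73.7% inside coding genes, 60.5% in both wild-type lists and 36.8% beside both MBD lists. An MBD score of at least 10 gave 1.22%. The D1-named MBD list alone gave 95 sites (1.01%), 77.9% of them beside both MBD lists, and the WT-named list alone 58.7%. The untransduced list alone gave 70 sites with a median score of 8.30, 85.7% in both wild-type lists and 41.4% beside both MBD lists. With gene ends at 5 kb, 25.2% lay near one. The cause of these moves was not tested beyond the smaller or larger sets of summits themselves.
The lower share by H3K4me3 than at MBD-free sites kept its direction in 14 of 15 alternatives, the higher share inside coding genes in 11 of 12 and the lower share in both wild-type lists in 11 of 12, each except MBD within 100 bp. The lower share at coding gene ends kept it in 13 of 13. The lower median score kept it in 11 of 12, except at a score of at least 10. The share with Smchd1 was higher than at MBD-free sites in 11 of 15. It rested on 3 of 147 sites, and its interval of 0.423 to 5.85% held the MBD-free share of 1.26%. The alternatives re-cut largely the same few sites, so no direction is read from this count.
Leaving out the repeat regions and using the wild-type H3K4me3 list were chosen after seeing the data. Without depth, a summit missing from a list cannot be told from one just under its threshold.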
